A study of Drosophila melanogaster with 4 samples.

Results

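Histone H4 is a core subunit of the nucleosome, the particle around which nuclear DNA is wrapped, so chromatin immunoprecipitation with an antibody to H4 followed by sequencing (ChIP-seq) reports where nucleosomes are found relative to input DNA. The regions described here are those called as enriched for H4 on the sequence named U of the FlyBase r5 assembly of Drosophila melanogaster. They were chosen by their sequence name alone, and by no measured value. Replicate 1 had 291 of them among 15405 enriched regions in all, replicate 2 had 244 among 12952, and the combined list of the replicate set had 759 among 22525.

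U is an artificial join of scaffolds that the assembly could not place on a chromosome. Much of such sequence comes from heterochromatin, the compact part of the genome that is rich in transposon remnants, satellite repeats and ribosomal DNA. A repeat has near-identical copies elsewhere, so short reads from it are hard to assign to 1 copy. Neighbours on U may lie on different scaffolds, and distances along U are therefore not always distances in the genome.

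All 4 libraries came from wild-type embryos of the strain Oregon-R (Oregon-R-modENCODE) at the 14 to 16 h stage, crosslinked with 1.8% formaldehyde. There were 2 H4 ChIP libraries and 2 input libraries, with 1 input matched to each ChIP library by the labels. Only the ChIP libraries had lists of regions, so input entered only through the authors' calls, and the depth of the libraries is unknown. The labels do not state that each replicate was its own collection of embryos, and the spread between replicates may be technical. With 1 group of 2 libraries a two-sided exact sign-flip test over samples cannot give a p below 0.50, so no test between sequences was run, and values are given in each list side by side.

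The deposited score of a region was above 0 for every region named as enriched, and its scale is not given in the sources used here. The values themselves carried a scale. When 2 was raised to the difference between a score and the most frequent score of its list, the result was a ratio of whole numbers up to 1000 (relative tolerance 1e-10) for 89.8% of the regions of replicate 1, 82.0% of those of replicate 2 and 75.4% of the combined list. With base 10 the shares were 0.441%, 0.525% and 0.710%, and with base e 0.409%, 0.494% and 0.599%. On U the base 2 shares were 96.2%, 95.5% and 96.3%. The score is therefore read below as a log2 ratio with an unknown constant in each list.

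U was sparsely marked. Its regions covered 6.19% of 10.0 Mb in replicate 1 and 5.09% in replicate 2, against 32.6% and 26.0% of the arms 2L, 3L and 3R together. That came to 29.0 and 24.3 regions per Mb on U, compared with 124 and 104 on the 3 arms. The pericentric sequences and those of the Y (the 6 sequences whose names end in Het) lay between, with 40.7 and 31.7 regions per Mb. Chromosome 4 was slightly sparser than U, with 26.6 and 23.7 regions per Mb over 5.75% and 5.03% of its bases. In the combined list U had 75.5 regions per Mb, above the 72.0 of the Het sequences and below the 180 of the arms. No region on U was named as depleted. The replicate lists had no region of that kind on any sequence, and the combined list had only 14, so this sets U apart from nothing.

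Regions reached from near 1 end of U to near the other. The first began at base 16937 in replicate 1 and at base 43147 in replicate 2, and the last ended at 9959591 and 9959509. Beyond these, the final incomplete window of 49037 bp held no region of either replicate and 2 of the combined list.

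Along U the regions were unevenly spread, and the covered shares of the replicates followed each other. Over 20 windows of 500 kb the covered share ran from 2.10% to 12.9% in replicate 1 and from 1.39% to 10.7% in replicate 2. The densest window in both was U:6000001-6500000, with 30 and 24 regions. It was followed by the first window of U, with 27 and 25 regions over 12.1% and 10.3% of its bases. The sparsest in replicate 1 was U:8500001-9000000, with 5 and 6 regions, and in replicate 2 it was U:5000001-5500000, with 8 and 4. Between the replicates, Pearson's r of the covered share was 0.95 and Spearman's rho 0.94 over the 20 windows, and 0.98 and 0.98 over 150 windows of the 3 arms. Windows share libraries and are a description only. Replicate 1 covered more in 17 of 20 windows on U and in 150 of 150 on the arms.

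**Figure D1:**
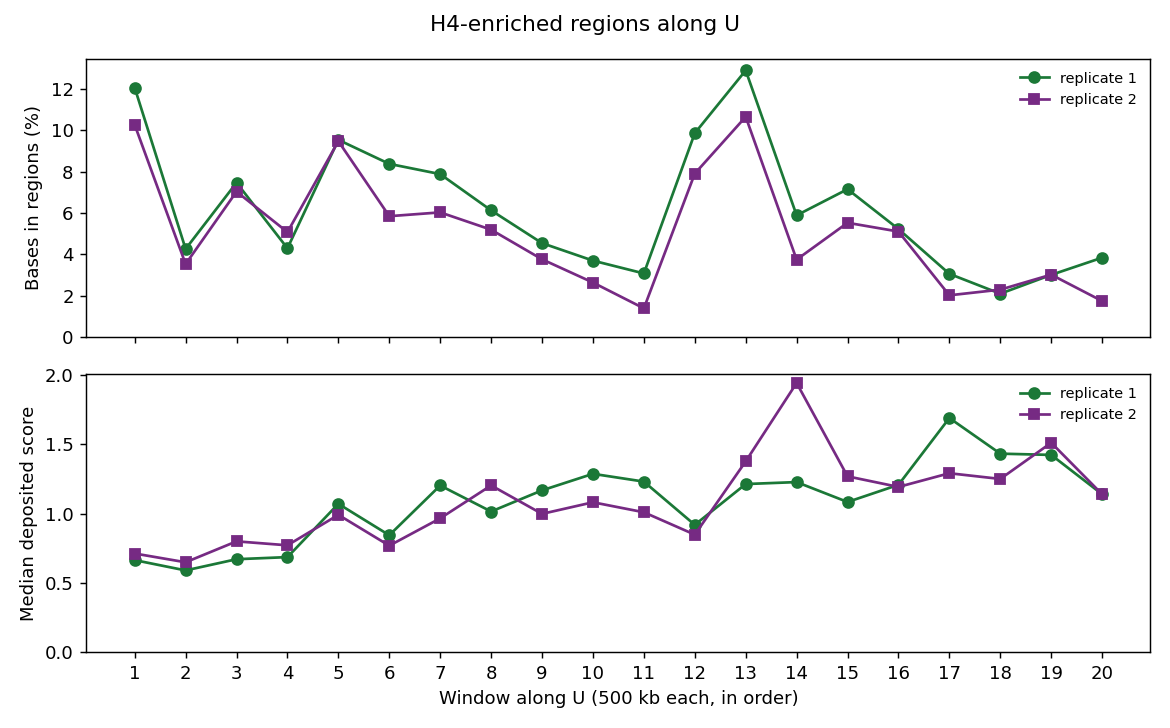
Share of bases in H4-enriched regions (top, %) and median deposited score (bottom, log2 ratio with an unknown constant) in 20 windows of 500 kb in order along U; each point is 1 window in 1 replicate list. Both replicates are highest in covered share in window 13, and the median score in the first 4 windows is at most 0.80.

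The start of U stood apart in score. In replicate 1 the 4 windows of the first 2 Mb had median scores from 0.59 to 0.69, below all of the 16 later windows (0.84 to 1.69). In replicate 2 the first 4 had 0.65 to 0.80 and the later ones 0.77 to 1.94, so the ranges overlapped. They overlapped in the combined list too, with 0.55 to 0.67 and 0.64 to 1.19. By region, the first 2 Mb had a median score of 0.65 in replicate 1 (n = 66) and 0.75 in replicate 2 (n = 60), and the rest of U had 1.15 (n = 225) and 1.15 (n = 184). Only 1 of 66 and 4 of 60 regions of the first stretch had a score over 1.5, compared with 64 of 225 and 58 of 184 in the rest. The bound of 2 Mb was chosen after these values were seen.

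Spacing on U was wide. The median distance between neighbours was 15981 bp in replicate 1 and 21909 bp in replicate 2, compared with 2437 and 3020.5 bp on the arms and 11494.5 and 13089 bp on the Het sequences. On chromosome 4, with only 36 and 32 regions, it was wider than on U, at 20769 and 28672 bp. Gaps of more than 50 kb made up 22.1% (64 of 290) and 25.9% (63 of 243) of those on U, but 0.631% and 1.41% of those on the arms. The Het sequences had 11.8% and 18.4%, and chromosome 4 had 17.1% (6 of 35) and 19.4% (6 of 31). Close neighbours were present on U too: 26 and 13 gaps were under 1 kb, or 8.97% and 5.35%, compared with 28.3% and 25.9% on the arms. In the combined list the median distance on U came down to 5920.5 bp, next to 1380 bp on the arms.

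The longest stretch that was empty in both replicates ran over U:4317519-4628404 in replicate 1 (311 kb, the longest gap of that list) and over U:4318268-4628302 in replicate 2 (310 kb, the next to longest of that list). The combined list placed 9 regions inside it. The third longest gap of replicate 2, U:686894-901459 (215 kb), held no region of replicate 1 either, and 4 of the combined list. The longest gap of replicate 2, U:4953755-5286212 (332 kb), held 3 regions of replicate 1 and 15 of the combined list. The longest gaps of the combined list itself were U:687176-820482 (133 kb), U:3161251-3278310 (117 kb) and U:8002132-8101824 (99.7 kb), and none of the 3 held a region of either replicate.

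Typical widths on U were close to those on the arms, but broad regions were fewer than there. The median width was 1934 bp on U and 1993 bp on the arms in replicate 1, and 1895 bp and 1966 bp in replicate 2. The upper quartile was 2328 bp against 3011.75 bp in replicate 1 and 2208 bp against 2848 bp in replicate 2. Regions of 4 kb or more numbered 14 (4.81%) and 10 (4.10%) on U, compared with 13.8% and 11.5% on the arms. The shares were 9.0% and 8.2% on the Het sequences and 11.5% and 7.8% on X. Chromosome 4 was below U, with 2.8% (1 of 36) and 3.1% (1 of 32). None reached 10 kb on U in either replicate, where the widest was 6482 bp and 7249 bp. The arms had 93 (0.994%) and 49 (0.624%) of that size, and the Het sequences 1 of 378 and 0 of 294. At shares this small, few would be found among 291 and 244 regions, so their absence on U says little. The combined list had 1 region of 10 kb or more on U, of 11578 bp. This was 0.132% of its U regions, compared with 1.57% on the arms and 0.150% on the Het sequences.

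Scores on U were high and widely spread. In replicate 1 they ran from 0.21 to 3.82 with a median of 1.04, and in replicate 2 from 0.35 to 3.29 with a median of 1.01. The interquartile range was 0.70 and 0.78, compared with 0.23 and 0.18 on the arms, where the medians were 0.55 and 0.57. A score over 1.5 was found in 65 of the 291 U regions of replicate 1 (22.3%), where 0.565% of all regions of that list passed this value. In replicate 2 it was 62 of 244 (25.4%), where 0.610% of all regions passed. U thereby held 74.7% and 78.5% of all regions over 1.5, although it held 1.89% and 1.88% of the regions of the lists. The 3 arms together had 3 and 4 such regions, and the Het sequences 12 and 10.

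On the arms wider regions scored higher, and on U they did not. The Spearman rho of width and score was 0.01 on U in replicate 1 and -0.01 in replicate 2, compared with 0.73 and 0.72 on the arms and 0.40 and 0.37 on the Het sequences. These are descriptions across regions of 1 library. In the first 2 Mb of U rho was 0.52 and 0.23, and in the rest it was -0.10 and -0.05. Over 6 width classes the U medians ran from 0.85 (4000 bp or more) to 1.14 (2000 up to 2500 bp) in replicate 1, and from 0.89 (2000 up to 2500 bp) to 1.15 (1500 up to 2000 bp) in replicate 2, with no shared order. At widths of 1300 up to 1500 bp the U median was 1.02 in replicate 1 (n = 57) and 0.95 in replicate 2 (n = 47), and at 3000 up to 4000 bp it was 1.09 (n = 26) and 0.97 (n = 15). On the arms the same classes had 0.43 and 0.47 for the narrow regions and 0.68 and 0.68 for the broader ones.

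**Figure D2:**
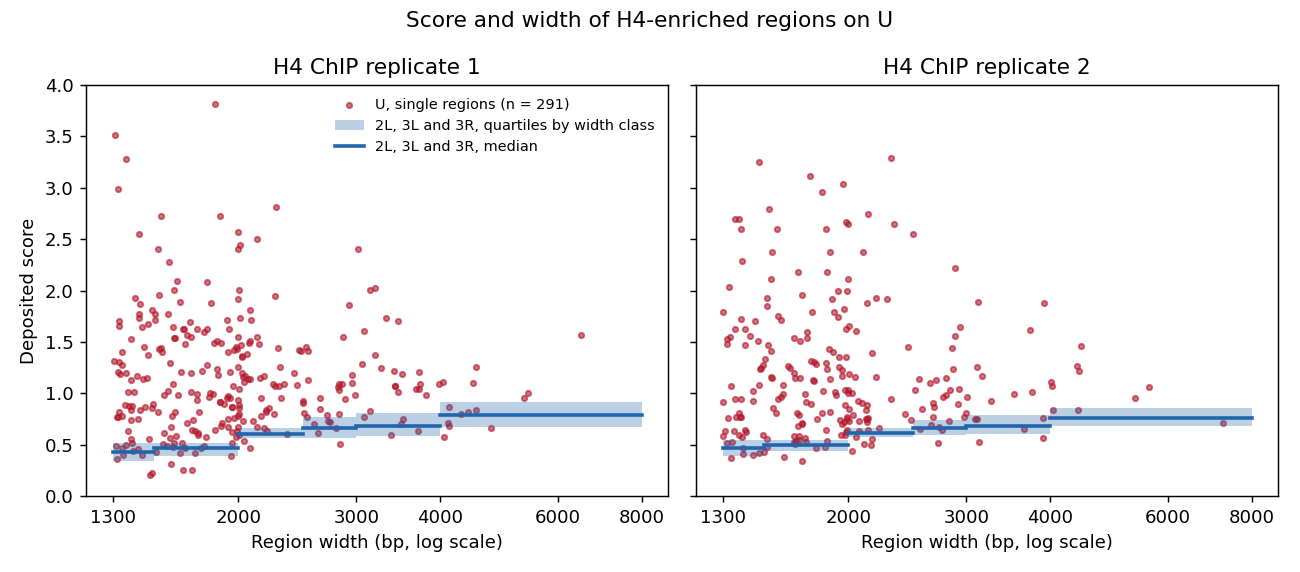
Deposited score (log2 ratio with an unknown constant) against region width (bp, log axis) in each replicate list. Points are single regions on U; lines and bands are the median and quartiles of the regions of 2L, 3L and 3R in width classes, of which the last takes all regions of 4000 bp or more. The arm medians go up with width, from 0.43 to 0.79 in replicate 1, and the U points do not.

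Matched for width, the score difference remained. Each U region was set against all regions of 2L, 3L and 3R in its own list whose width was within 10% of its own, which gave 221 to 2492 regions in replicate 1 and 121 to 2232 in replicate 2. The median difference, U minus arms, was 0.45 in replicate 1 (quartiles 0.17 and 0.93) and 0.45 in replicate 2 (0.15 and 1.00). Read as log2, these are ratios of 1.37 and 1.36. The U region was above the median of its matches in 267 of 291 cases (91.8%) and 223 of 244 (91.4%), and 44 and 53 were above every match. The mean of both replicates was 0.450 ± 0.00476 (SD, n = 2). Taken against 1 arm at a time, the differences were 0.45, 0.45 and 0.46 in replicate 1 and 0.44, 0.46 and 0.45 in replicate 2 for 2L, 3L and 3R.

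This difference varied with width and position. In replicate 1 it was 0.58 at 1300 up to 1500 bp, 0.57 at 2000 up to 2500 bp and 0.11 at 4000 bp or more (n = 14). In replicate 2 the same classes had 0.48, 0.30 and 0.34 (n = 10 for the last), so the 2 lists did not share an order. In the first 2 Mb of U the difference was 0.11 and 0.15, with 52 of 66 and 48 of 60 regions above their matches, and in the rest of U it was 0.58 and 0.58. The same measure gave 0.10 and 0.10 for the Het sequences, 0.10 and 0.10 for X, and -0.0026 and 0.0007 for chromosome 4. The U value was thus above each of these in both lists. In the combined list it was 0.58, with 722 of 759 regions above their matches.

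The replicates agreed less on U than on the arms. By bases, 54.5% of the U sequence marked in replicate 1 and 66.3% of that marked in replicate 2 lay in both lists, compared with 70.0% and 87.6% on the arms. By number, 164 of 291 regions of replicate 1 (56.4%) touched a region of replicate 2, where 70.8% of all regions of that list did. In the other direction 165 of 244 (67.6%) did, where the share over all sequences was 88.8%. On the Het sequences 62.4% and 82.7% touched. The opposite list covered more of the arms than of U, as given above, and the part of this in the lower shares on U was not tested.

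Broad U regions were shared more often than narrow ones, as on the arms. Among U regions of 4000 bp or more, 14 of 14 and 10 of 10 touched the other list, next to 98.8% and 100% on the arms. At 3000 up to 4000 bp the counts were 22 of 26 (84.6%) and 15 of 15 on U, next to 95.1% and 99.7% on the arms. At 1300 up to 1500 bp the counts on U were 18 of 57 (31.6%) and 19 of 47 (40.4%), compared with 37.0% and 69.8% on the arms at this width. At 1500 up to 2000 bp, the class with most U regions, they were 46 of 107 (43.0%) and 63 of 104 (60.6%), compared with 60.9% and 87.3%. At 2000 up to 2500 bp they were 65.6% and 82.5% on U and 84.1% and 97.2% on the arms. At 2500 up to 3000 bp U had 24 of 26 (92.3%) in replicate 1, above the 88.0% of the arms, and 25 of 28 (89.3%) in replicate 2, below their 98.9%.

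Score worked in the opposite direction on U. The regions of each group were ordered by score within their list and divided into 3 equal classes. On U the low class touched the other list in 64 of 97 cases (66.0%) in replicate 1, the middle class in 61 of 97 (62.9%) and the high class in 39 of 97 (40.2%). In replicate 2 these were 68 of 82 (82.9%), 60 of 81 (74.1%) and 37 of 81 (45.7%). On the arms the order was reversed, with 53.1%, 69.0% and 91.9% in replicate 1 and 81.3%, 88.6% and 97.4% in replicate 2. The Het sequences had their highest share in the middle class in both lists, at 74.6% and 88.8%, and the share of their high class was 65.1% and 75.5%. The low class was thus shared more often on U than on the arms in both lists, and the high class less often. On the arms the score classes also differ in width, and among regions under 2000 bp the change from low to high was 2.20 and 0.87 percentage points there, but -19.5 and -36.6 on U.

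**Figure D3:**
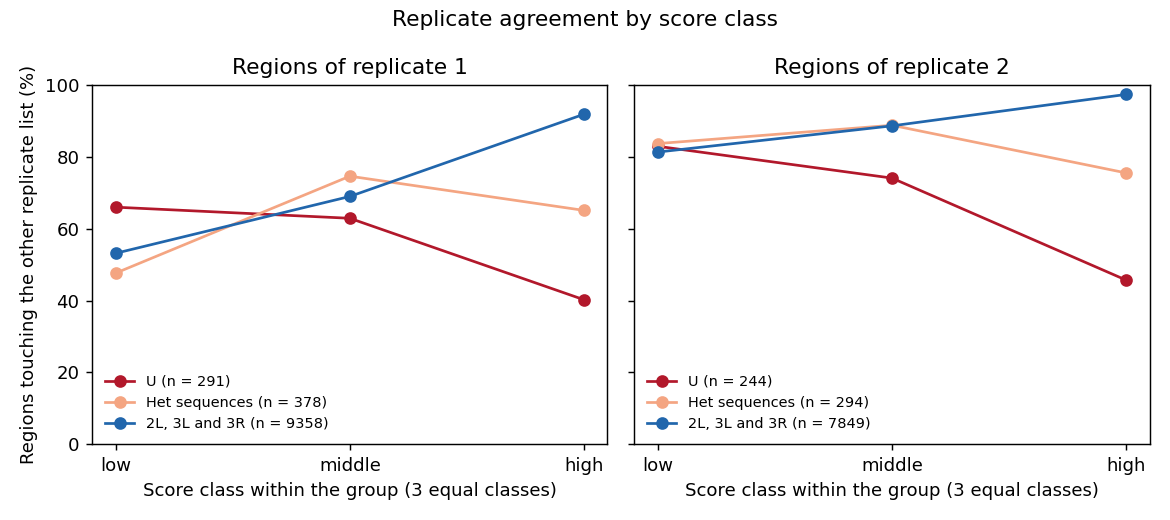
Share of regions that touch a region of the other replicate list (%), by score class within each group (3 equal classes, x axis), for the regions of replicate 1 (left) and replicate 2 (right). From the low to the high class the share goes from 66.0% to 40.2% and from 82.9% to 45.7% on U, and from 53.1% to 91.9% and from 81.3% to 97.4% on the arms.

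The classes cover different scores on U and the arms, so bands of equal score were compared as well. Between 0.6 and 0.8, 31 of 47 U regions of replicate 1 (66.0%) and 40 of 45 of replicate 2 (88.9%) were touched, compared with 86.1% and 95.4% on the arms. Between 0.8 and 1.0 it was 31 of 49 (63.3%) and 30 of 37 (81.1%) on U, and 99.3% and 99.5% of 892 and 587 regions on the arms. In these bands U was the lower in both lists. Between 0.4 and 0.6 the lists differed: U had 20 of 31 (64.5%) in replicate 1, next to 63.6% on the arms, and 26 of 34 (76.5%) in replicate 2, next to 85.7%. Under 0.4 U had only 9 and 3 regions, of which 5 and 2 touched. At 1.5 or more it was 21 of 65 (32.3%) and 25 of 62 (40.3%) on U. The arms had too few regions there to compare, with 1 of 3 and 1 of 4. On the Het sequences 0 of 12 and 2 of 10 regions at 1.5 or more touched the other list.

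Sharing on U went with both width and score. Among U regions of 2000 bp or more, 50 of 53 with a score of at most 1 were shared in replicate 1, and 10 of 23 with a score over 1.5. In replicate 2 the counts were 51 of 51 and 11 of 17. Among those under 2000 bp they were 37 of 83 and 11 of 42 in replicate 1, and 47 of 68 and 14 of 45 in replicate 2. For scores of at most 1 and widths of 2000 bp or more, U had 94.3% and 100%. This was near the 91.0% and 98.8% of the arms and the 91.4% and 97.5% of the Het sequences. Under 2000 bp U had 44.6% and 69.1% at these scores, the arms 51.5% and 80.2%, and the Het sequences 42.3% and 74.1%. The regions of U without a partner were correspondingly narrower and higher in score than the rest. In replicate 1 the 127 of them had a median width of 1638 bp and a median score of 1.20, compared with 2142 bp and 0.96 for the 164 that touched. In replicate 2 the 79 had 1586 bp and 1.39, compared with 2002 bp and 0.90. On the arms regions without a partner scored lower than the others, with medians of 0.47 and 0.49 against 0.59 and 0.58. The Het sequences differed between the lists: lone regions had a median of 0.59 against 0.69 in replicate 1 and of 0.76 against 0.68 in replicate 2.

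Most of the lone regions on U were 5 kb or more from the other list. The median distance to the nearest region there was 9572 bp for replicate 1 and 9900 bp for replicate 2. For lone regions it was 2623 and 1640.5 bp on the arms and 8169 and 5891 bp on the Het sequences. Neighbours within a list were also farther apart on U, as given above, and the part of this was not tested. Only 17 of 127 (13.4%) and 7 of 79 (8.86%) lone U regions had one within 1 kb, and 41 and 25 within 5 kb. On the Het sequences 14.8% and 15.7% of lone regions had one within 1 kb, and on the arms 24.6% and 36.1%. The 3 highest scores of replicate 1 on U belonged to such regions. The first, U:6481205-6483054, had a score of 3.82 and no region of replicate 2 within 10414 bp. It was followed by U:6423253-6424563 (score 3.52, nearest 22064 bp away) and U:1573303-1574664 (3.28, 12220 bp). In replicate 2 the top region on U had a partner, and the 3 lone regions that came next were U:7534864-7536335 (3.25, 5695 bp), U:6537776-6539528 (3.11, 9158 bp) and U:7572584-7574549 (3.04, 15005 bp). The combined list covered at least 58.6% of each of these 6 and scored them lower, from 1.20 to 2.66.

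Where both lists had a region, they matched closely. On U 160 pairs were each other's largest overlap. Pearson's r of their scores was 0.84 and Spearman's rho 0.89, compared with 0.81 and 0.77 over 6444 pairs on the arms. These are correlations across regions that share libraries. The constant of the score may differ between the lists, so single differences carry an unknown offset; replicate 1 was higher in 84 pairs and replicate 2 in 76. The unsigned difference had a median of 0.12 on U and 0.073 on the arms. Edges of paired regions were 147.5 bp apart in the median on U and 132 bp on the arms, and 192 of 320 edges and 8117 of 12888 lay within 200 bp. The median Jaccard index of a pair (shared bases over all bases of both regions) was 85.3% on U and 85.0% on the arms. Widths correlated less on U, with r at 0.70 against 0.84.

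**Figure D4:**
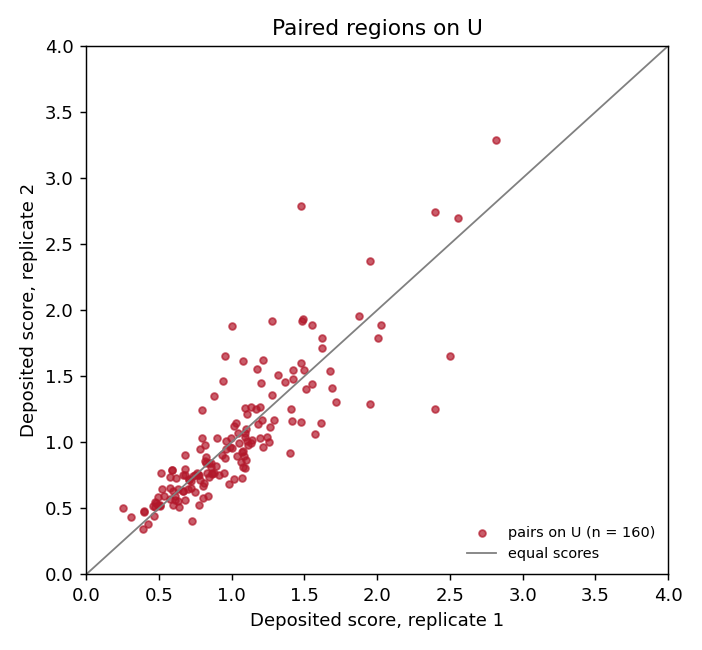
Deposited scores (log2 ratio, each list with its own unknown constant) of 160 pairs of overlapping regions on U, replicate 1 on the x axis and replicate 2 on the y axis; each point is 1 pair and the line marks equal scores. Most pairs lie near the line (Spearman rho 0.89), and the pair farthest from it has 1.48 and 2.79.

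The pair with the highest mean score was U:9205503-9207777 in replicate 1 and U:9205541-9207860 in replicate 2, with scores of 2.82 and 3.29 and 94.9% of their joint bases shared. It was above all of its width matches on the arms, whose medians were 0.62 and 0.64. Next came U:6576208-6577628 and U:6576132-6577505, with 2.55 and 2.70. The third was U:3156991-3160006, matched by the narrower U:3156860-3158998, with 2.40 and 2.74. These 3 pairs had scores over 2 in both lists.

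The other 5 of the 8 highest pairs had at least 1 score under 2. U:7363442-7364966 had 1.95 and 2.37. U:6909365-6911030 had 1.48 and 2.79, the widest disagreement of all pairs, with 60.3% and 65.8% of the regions shared. U:8412839-8414975 had 2.50 and 1.65 although its edges were nearly the same in both lists (93.9% of joint bases shared). U:8776887-8780081 had 2.03 and 1.89, and U:6777544-6779366 had 1.87 and 1.96. None of the 8 lay in the first 2 Mb of U, a stretch that was bounded after its lower scores were seen, so this adds nothing to them.

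Apart from U:6909365-6911030, the pairs that differed most in score were U:2290798-2292315, with 2.40 in replicate 1 and a difference of -1.15 to its partner U:2289804-2291744 in replicate 2, and U:6223133-6224950, with 1.00 and 1.88 for the much wider U:6223173-6227091. In both, the regions overlapped by under 50% of the replicate 2 region (48.8% and 45.4%), so the scores partly describe different bases.

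The broadest pairs were less extreme in score. The widest, U:3477867-3484348, spanned 6482 bp with a score of 1.57 in replicate 1 and 5611 bp with 1.06 in replicate 2. The region U:1971728-1978976 of replicate 2 (7249 bp, score 0.72) was met by U:1971761-1975868 in replicate 1 (4108 bp, 0.71). The arm medians at these widths were 0.77 and 0.73, so both scores lay slightly under them. U:6046192-6051611 had 1.00 and 0.95 and was shared to 98.4% of joint bases. U:2084516-2089045 had 0.84 in both lists, and U:4628405-4632887, which begins where the long empty stretch ends, had 1.10 and 1.21.

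The 3 paired U regions with the lowest mean score, picked for that, were below the arm medians but inside the range of the arms. U:1227953-1229903 had 0.39 and 0.35, U:3471471-3473058 had 0.31 and 0.43, and U:3534498-3536202 had 0.26 and 0.50, next to arm medians from 0.43 to 0.60 at the same widths. Their scores were above 1.84% to 36.3% of their width matches on the arms. The region at 3471471 is close to the widest pair by coordinate, so high and low scores occurred near each other along U. Whether they lie on the same scaffold is unknown.

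The combined list added more on U than elsewhere. It had 759 regions over 15.4% of U, compared with 291 and 244 in the replicate lists. Of these, 158 (20.8%) touched both replicate lists, where 43.3% of all combined regions did. A further 115 (15.2%) touched replicate 1 alone, 74 (9.75%) touched replicate 2 alone, and 412 (54.3%) touched neither. On 2L, 3L and 3R together 44.1% touched both and 32.4% touched neither, and on the Het sequences 32.8% and 41.9%. By bases, 39.1% of the combined U regions belonged to regions found in neither list, compared with 16.8% on the arms. The replicate lists covered more of the arms than of U, and the part of this in the shares was not tested.

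**Figure D5:**
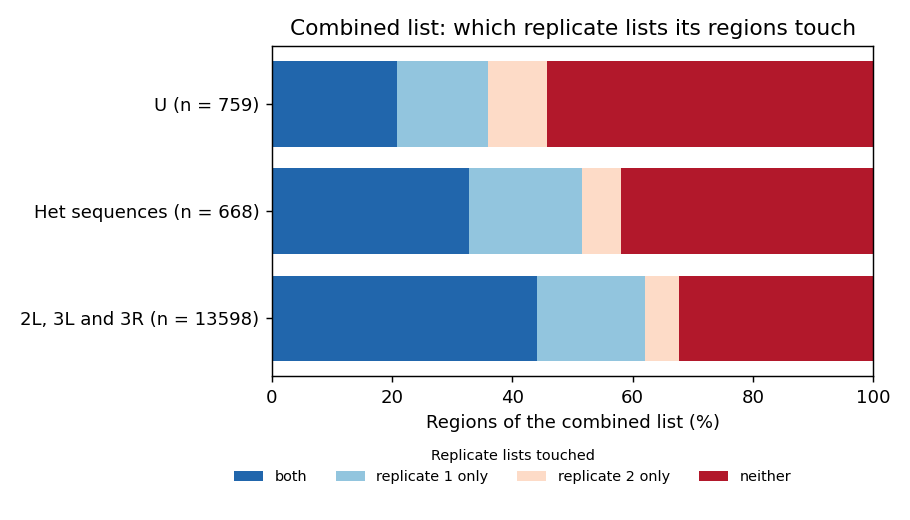
Regions of the combined list by which replicate lists they touch, as a share of the group (%), for U, the Het sequences and 2L, 3L and 3R together. On U 54.3% touch neither list and 20.8% touch both; on the arms the shares are 32.4% and 44.1%.

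On U the regions found in neither replicate list were narrow but not low in score. Their median width was 1335 bp, against 2991 bp for those found in both, and their median score was 1.04, against 0.84. On the arms the widths were similar (1275 bp and 3148.5 bp), but the regions found in neither scored lower, 0.34 against 0.49. Of the combined U regions, 207 (27.3%) were narrower than 1301 bp, the least width of any replicate region, and 198 of these touched neither list. Their median score was 1.09, compared with 0.35 for the 2578 such regions on the arms. By score class, 67 of 253 low-scoring, 57 of 253 middle and 34 of 253 high-scoring combined U regions touched both lists (26.5%, 22.5% and 13.4%), while on the arms the shares were 16.2%, 31.0% and 85.0%.

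The U regions of the replicate lists were almost all kept in the combined list. This share was counted on U only, so it does not set U apart from other sequences. On U it held 289 of the 291 regions of replicate 1 at least in part: all 164 that touched replicate 2 and 125 of 127 that did not. For replicate 2 these were 165 of 165 and 78 of 79. The combined score was lower than the replicate's own for 119 of the 125 lone regions of replicate 1 and 77 of the 78 of replicate 2, by medians of -0.25 and -0.36. For regions touched by the other list it was lower in 138 of 164 and 120 of 165, by medians of -0.10 and -0.08. The constant of the combined score is unknown too, so these differences carry an offset common to all regions of a list.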

How the data were processed

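Lists of H4-enriched regions from 2 ChIP libraries and 1 combined list were analysed; the 2 input libraries had no list of their own. The authors called the regions on FlyBase r5 coordinates, per the file headers. Bowtie 0.12.7 is named in the submitters' processing notes; for the caller, its threshold and the making of the combined list, the answer is not given in the sources used here. The first and last base of each region, as deposited, count from 1. The authors' deposited score per region was used within a list, and its base 2 was read from its values as given above. No reads were used, so depth is unknown.

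Overlaps were counted per base, and a region touched another from 1 shared base. Windows took regions by midpoint for counts. No genome of build r5 was used, so no sequence or gene is given. U was compared with 2L, 3L and 3R, and the Het sequences stand beside them. The members, lists, windows and comparisons were chosen with earlier results of these data known. Named are the 8 paired regions with the highest, and 3 with the lowest, mean score, the 5 widest, the 3 with the largest score difference, the 3 highest scoring lone regions of each replicate and the 3 longest gaps of the combined list. Chosen only once values had been seen were the gaps of the replicate lists, the first 2 Mb, the score bands and the whole-number ratios. Alternatives were the higher scoring 50% of each list, widths of at least 2000 bp, merging of neighbours up to 100 bp apart, a shared part of 50% or more, other width matches, each arm and each replicate alone, and equal covered length. For equal covered length, the U regions of replicate 1 were kept from the highest score down. Functions were tested on simulated data. Python 3.11.15, NumPy 2.4.6, pandas 2.3.3, SciPy 1.17.1 and Matplotlib 3.10.9 were used.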

Additional observations from a re-analysis of the deposited data

Results flagged for a closer look

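The share of regions found in the other replicate moved with score in opposite directions on U and on the arms. From the low to the high score class it changed by -25.8 percentage points on U in replicate 1 and by -37.2 in replicate 2. On 2L, 3L and 3R it changed by 38.7 and 16.0 percentage points. Both lists gave a negative value on U and a positive one on the arms, which is why the result is listed here. The difference itself was not tested.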

How the results depend on the processing

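No paired analysis was possible because only the ChIP group has lists, so the replicate numbers it shares with the inputs pair no values, and no test was run. Agreement needs both replicates and has no value without one of them. Of 55 alternative values 30 were labelled the same as the main value and none changed direction. The 30 do not measure stability, because part of the labels was fixed by the rule. With 2 replicates, either alone lies within the SD of their mean. The Jaccard index had to be equal to count as the same, and the changes in touching share by width had no interval. Widths of at least 2000 bp left 110 regions on U (mean of both lists) over 3.08%, a score difference of 0.35, 77.4% of replicate 2 regions touching and a Jaccard index of 47.4% against 42.7%. The combined list gave 759 regions, 15.4%, a width ratio of U to the arms of 0.938 against 0.967, and a score difference of 0.58. With the higher scoring 50% the width ratio was 0.683 and the Jaccard index 39.5%; with regions merged they were 0.952 and 42.7%. Without width matching the score difference was 0.47 against 0.45. At equal covered length 52.5% of replicate 2 regions touched and the Jaccard index was 36.4%. That setting kept the highest scoring U regions of replicate 1, and high-scoring U regions were less often shared. The parts of score and of length in these values were not separated. With at least 50% shared, 17.0% of combined regions lay in both lists. Without replicate 1 or without replicate 2 the number of regions ran from 244 to 291, the covered share from 5.09% to 6.19%, the width ratio from 0.964 to 0.970 and the score difference from 0.447 to 0.454. The change in touching share from the low to the high score class was also computed by width, a choice made after seeing the data. On U it was -33.5 and -29.0 percentage points (replicates 1 and 2) at 2000 bp or more and -19.5 and -36.6 below. On the arms it was 16.1 and 2.38, and 2.20 and 0.87. The change on the arms was thus smaller within both width classes than over all widths.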

Other observations

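The whole-number ratios behind the scores were simpler on U. For each list 1 constant was chosen that gave the most regions, over all sequences, a ratio with both numbers up to 100. With it, 179 of 291 U regions of replicate 1 (61.5%), 167 of 244 of replicate 2 (68.4%) and 486 of 759 of the combined list (64.0%) had such a ratio. On 2L, 3L and 3R the shares were 19.6%, 21.4% and 11.3%, and on the Het sequences 36.2%, 38.1% and 28.0%. With the next best constant the U shares were 51.2%, 59.8% and 59.9%. The ratios are in lowest terms and give no read number. With the first constant, the top U region of replicate 1 had a ratio of 8 to 1, and the next 13 to 2. Another constant gives other ratios, so these are not fold enrichments.

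U regions with such simple ratios were less often found in the other replicate. In replicate 1 71 of 179 touched (39.7%), against 93 of the other 112, and in replicate 2 92 of 167 (55.1%) against 73 of 77 (94.8%). Among U regions with a score of at most 1 the shares were 40.7% against 79.3% and 41 of 59 (69.5%) against 57 of 60. Among those of at least 2000 bp they were 53.7% against 97.3% and 77.5% against 98.1%. Over all scores and widths, the shares on the arms were 62.9% against 73.4% and 85.3% against 90.1%. On the Het sequences they were 47.4% (65 of 137) against 71.0% and 69.6% (78 of 112) against 90.7%. The share was thus lower for simple ratios in each of these groups, not on U alone. These comparisons were made after the values were seen, and what the numbers count is not given in the sources used here.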
